A study of Homo sapiens with 12 samples.

Results

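A pair of short hairpin RNAs against the same messenger RNA, shRNA2 and shRNA3, were set against each other in SCC-15, an established human cell line from an oral squamous cell carcinoma. The members were the 6 RNA-seq libraries of these hairpins, 3 of shRNA2 and 3 of shRNA3, among 12 libraries in all. The other 6 libraries carried shRNA1, also against FMOD, or a negative-control hairpin (NC), with 3 libraries each. All cells were harvested 48 hours after treatment, per the labels' protocols. The labels name no clone, and nothing in them says that replicates came from separate cultures. P-values therefore measure the spread between these libraries, which may be technical. Because shRNA3 library 3 differed from its 2 group mates, genes were further split by whether that library lay with shRNA3 libraries 1 and 2 or with shRNA2. Of 17532 genes tested, 4479 could be placed in this way.

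A short hairpin RNA is transcribed in the nucleus, exported by exportin 5 (XPO5) and cut by DICER1 into a short duplex. A strand of that duplex is loaded into an Argonaute protein and guides it to matching messenger RNAs. Hairpins to the same target have different guide strands, so their pairing with other transcripts also differs, and differences between hairpins are commonly examined for this reason. FMOD encodes fibromodulin, a small leucine-rich proteoglycan that binds collagen and influences TGF-beta signalling. The hairpin sequences were not used here. The series sets FMOD in the context of EGFR signalling, so the EGF-family ligands and the output genes of the ERK pathway were described among the gene groups.

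The targeted gene did not distinguish the hairpins. FMOD (ENSG00000122176, chr1:203340628-203351758, minus strand, GRCh38) had 0 counts in all 6 shRNA2 and shRNA3 libraries, which allows between 0.195 and 0.213 CPM (counts scaled to a common library size) per library at the upper bound of the exact Clopper-Pearson 95% interval. These bounds use library totals, without the correction for RNA composition made for other CPM here, and cover counting error only. FMOD had 2, 2 and 3 counts in the NC libraries and 0 in the 3 shRNA1 libraries, so the hairpins could not be ranked by knockdown. Totals of the 6 libraries lay between 17286934 and 18960414 counts. All 14 squamous epithelial markers passed the filter on low counts. Their summed level was 3693 to 3761 CPM in shRNA2, and 8482, 7845 and 3747 CPM in shRNA3 libraries 1, 2 and 3. Most of the rise in libraries 1 and 2 was carried by LAMB3 and ITGB4. LAMB3 measured 596 to 610 CPM in shRNA2 and 3179 and 2995 CPM in these libraries, and ITGB4 681 to 693 against 2000 and 1685 CPM. KRT5 and PERP changed little there, KRT6A, TP63 and DSC3 were lower, and the other members rose by fewer CPM. Of 10 fibroblast markers 7, of 10 blood cell markers 8 and of 10 endothelial markers 6 stayed under 1 CPM in all 6 libraries, and no member of these 3 lists was called between the hairpins. Summed levels in shRNA2 against shRNA3 were 311 to 338 against 222 to 610 CPM for fibroblast, 8.96 to 10.7 against 5.61 to 12.6 CPM for blood cell and 116 to 131 against 113 to 198 CPM for endothelial markers, and their part in the results was not tested. Fibroblast and endothelial sums were carried by FBLN1 and EGFL7, and POSTN, KDR and PTPRC were at or near 0. In RNA from whole cultures, fewer cells of a kind and less RNA per cell cannot be told apart.

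Within shRNA3, library 3 and libraries 1 and 2 stood apart from each other across the transcriptome. Pearson's r of log2(CPM + 1) across genes, which are not independent replicates, was 0.995 between shRNA3 libraries 1 and 2. It was 0.919 and 0.916 between library 3 and these libraries, and 0.988 between library 3 and each shRNA2 library. With the shRNA1 libraries r was 0.979 to 0.982 for library 3. For shRNA3 libraries 1 and 2 it was 0.904 to 0.912 with shRNA1 and 0.925 to 0.929 with shRNA2. Within shRNA2 it was 0.995 to 0.996. Counts of library 3 were not identical to those of any shRNA2 library. The chi-square of the counts was 30.4 to 35.3 per gene between library 3 and the shRNA2 libraries, against 3.61 to 21.4 within shRNA2. Within shRNA1 it was 9.69 between libraries 1 and 2, and 54.5 and 40.5 between these and shRNA1 library 3. Between shRNA1 library 3 and shRNA2 libraries 2 and 3 it was 47.5 and 52.4. The range within shRNA1 therefore does not tell pairs within a hairpin from pairs across hairpins, and nothing is read from it. TMM factors, which correct for RNA composition, were 0.771 and 0.795 in shRNA3 libraries 1 and 2, 1.06 in library 3 and 0.979 to 1.02 in shRNA2. Mitochondrially encoded genes took 1.63%, 1.67% and 2.01% of counts in shRNA3 libraries 1, 2 and 3, and 2.16% to 2.22% in shRNA2. Library 3 thus lay nearer to shRNA2, and also to shRNA1, than to the other libraries labelled shRNA3. Libraries 1 and 2 of shRNA3 lay far from all other hairpin libraries. Whether the labels of these 3 libraries are right was not tested, and shRNA3 below means the libraries so labelled. Scaling by library totals in place of TMM moved the median shRNA3 minus shRNA2 difference of all genes by -0.12 on the log2 scale. That shift is for the mean of all 3 shRNA3 libraries, and list medians nearer to 0 than that have no direction. It was not computed for libraries 1 and 2 alone, whose TMM factors lay further from those of shRNA2 than that of library 3. List medians of libraries 1 and 2 therefore depend more on the scaling, and their directions were not tested against it.

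With all libraries kept, 1462 genes (8.34% of those tested) were called at an adjusted p under 0.05 by edgeR's quasi-likelihood test. Of these, 1128 (6.43%) were higher and 334 (1.91%) lower in shRNA3 than in shRNA2. The smallest adjusted p was 0.0092. Without shRNA3 library 3, 10800 of 18242 genes (59.2%) were called, 5194 higher (28.5%) and 5606 lower (30.7%), and all 1462 genes were among them. With library 3 as the only shRNA3 library, 244 of 19093 genes (1.28%) were called, 135 higher (0.707%) and 109 lower (0.571%), of which 98 were also called with all libraries. In that fit the lone library was assumed to vary like the other groups. Leaving out any of the other 5 libraries left between 0 and 19 calls. Adjusted p-values from all libraries therefore lay close to the threshold throughout, and named genes are given with their levels by library or their range within shRNA2.

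Most genes that separated shRNA3 libraries 1 and 2 from shRNA2 did not separate library 3. A gene was placed where the mean log2(CPM + 1) of shRNA3 libraries 1 and 2 differed from the shRNA2 mean by at least 1, with both libraries beyond all 3 shRNA2 libraries. The position of library 3 was then its distance from the shRNA2 mean as a share of that difference, so that 0 is the shRNA2 mean and 1 the mean of libraries 1 and 2. Of the 4479 placed genes, 1989 were higher and 2490 lower in shRNA3 libraries 1 and 2. Library 3 lay with shRNA2 (position within 0.333 of 0) in 3673 genes, 82.0% of those placed, 1615 of them higher and 2058 lower in libraries 1 and 2. It lay apart from shRNA2 with its group mates (position of at least 0.667, beyond every shRNA2 library) in 76 genes, 28 higher and 48 lower. A further 310 genes lay between, and in 420 genes library 3 lay past the shRNA2 mean on the other side, by more than 0.333 of the difference. The median position was -0.0306, with quartiles of -0.176 and 0.129. These classes were chosen on the values themselves and carry no test.

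**Figure D1:**
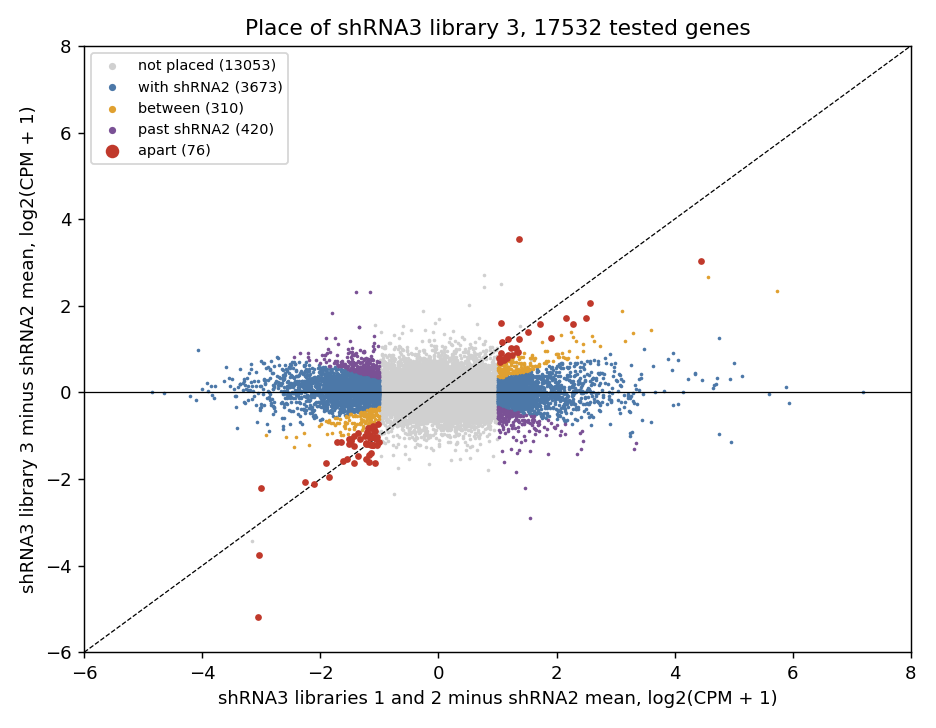
Each point is a tested gene, with the difference of shRNA3 libraries 1 and 2 from the shRNA2 mean on the horizontal axis and that of shRNA3 library 3 on the vertical axis, both in log2(CPM + 1). The 3673 genes where library 3 lay with shRNA2 follow the horizontal line, and the 76 genes apart lie near the dashed line of equal difference.

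Over all tested genes, the median size of the difference from shRNA2 was 0.552 for libraries 1 and 2 and 0.207 for library 3, in log2(CPM + 1). A difference of at least 1 was seen in 4497 genes for the former and in 260 genes for the latter. Library 3 was at least 2-fold from the shRNA2 mean and beyond all shRNA2 libraries in 255 genes, of which 150 moved to the same side as libraries 1 and 2 and 105 to the other side. Genes at the edges of the classes show how fine the lines are. JDP2 and HOXD11 were just inside the genes apart, at positions of 0.667 and 0.671, and GOLT1B and PLIN4 were just outside at 0.666. TFAP2C and WDR6 were just inside the genes with shRNA2, at 0.332 and 0.331, and VASN and PHGDH were just outside at 0.333 and 0.334. Of the 1462 called genes, 749 (51.2%) had library 3 with shRNA2 and 63 (4.31%) were apart. This count rests on the values that formed the classes, so nothing is read from it against the background of 8.34%.

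The 28 genes apart and higher in shRNA3 than in shRNA2 included stress, metal and inflammatory genes. Higher and lower are meant against shRNA2, and where NC lay differed from gene to gene. DDIT3 (ENSG00000175197, chr12:57516588-57521737, minus strand), which encodes the stress transcription factor CHOP, measured 11.4, 10.3 and 11.8 CPM in shRNA2 and 50.9, 56.3 and 38.9 CPM in shRNA3 libraries 1, 2 and 3. Its log2 fold change was 2.13 ± 0.26 (SE) by edgeR's quasi-likelihood test (adjusted p = 0.0134). Genes apart were chosen to have no overlap between the hairpins, so a lack of overlap is no result for them. Over all tested genes, 27.1% had all 3 shRNA3 libraries beyond all 3 shRNA2 libraries. DDIT3 overlaps MARS and MBD6 on the other strand, and whether counting was stranded is not given in the sources used here. ATF4, the factor that drives DDIT3 in the integrated stress response, measured 142, 133 and 143 CPM in shRNA2 and 297, 330 and 250 CPM in shRNA3. The log2 fold change of ATF4 was 1.07 ± 0.16 (adjusted p = 0.0186). In NC, ATF4 measured 207 to 240 CPM, between the hairpins.

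CCL5 (ENSG00000271503, chr17:35871491-35880793, minus strand), a chemokine for T cells, measured 7.79, 7.39 and 6.81 CPM in shRNA2 and 38.8, 40.2 and 23.8 CPM in shRNA3. Library 3 was the lowest of its group and still above shRNA2 by over 3-fold. The log2 fold change was 2.22 ± 0.25 with all libraries (adjusted p = 0.0092), 2.42 without library 3 and 1.71 with library 3 alone (adjusted p = 0.00249). PI3, which encodes the epithelial protease inhibitor elafin, measured 6.79, 7.72 and 7.59 CPM in shRNA2 and 18.0, 23.3 and 18.6 CPM in shRNA3. H2BC4, a histone H2B gene with near-identical copies, measured 2.69, 2.65 and 1.38 CPM in shRNA2 and 17.1, 18.6 and 12.2 CPM in shRNA3. Both rose in shRNA3, by 1.44 ± 0.30 (adjusted p = 0.0299) and 2.83 ± 0.49 (adjusted p = 0.0248) on the log2 scale. In NC, PI3 measured 0.555 to 0.689 CPM and H2BC4 1.31 to 1.93 CPM.

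MT1F and MT1X encode metallothioneins, small proteins that bind zinc and copper and are induced by metals. MT1F measured 7.26, 7.44 and 8.70 CPM in shRNA2 and 25.6, 30.5 and 25.3 CPM in shRNA3, and its log2 fold change was 1.80 ± 0.31 (adjusted p = 0.0248). MT1X (ENSG00000187193, chr16:56682424-56684196, plus strand) measured 23.3, 25.7 and 29.7 CPM in shRNA2 and 57.8, 81.0 and 315 CPM in shRNA3. For MT1X, library 3 was therefore the highest of the 6, at a position of 2.61, and the log2 fold change fell from 2.53 ± 0.54 (adjusted p = 0.0311) to 1.39 without it. In NC, MT1F measured 14.8 to 15.8 CPM, between the hairpins. MT1X measured 167 to 288 CPM there, above every hairpin library except shRNA3 library 3. Metallothionein genes are close copies, so reads may be divided among them with some error. The start of MT1X is shown because it holds the letters through which metal-dependent activation is known to act. In the RefSeq sequence from 250 bases before to 50 bases after its start (GRCh38.p14, chr16:56682220-56682519, plus strand), capitals mark matches to the metal response element core, searched as TGCACNC and TGCGCNC on both strands.
MT1X: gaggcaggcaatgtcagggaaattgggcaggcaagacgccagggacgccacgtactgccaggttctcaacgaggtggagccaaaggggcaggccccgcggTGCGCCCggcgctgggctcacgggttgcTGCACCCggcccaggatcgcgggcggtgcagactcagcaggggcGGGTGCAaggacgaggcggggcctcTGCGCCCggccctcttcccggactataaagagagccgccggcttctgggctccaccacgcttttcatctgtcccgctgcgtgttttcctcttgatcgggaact
This window held 4 matches. Of 35116 promoters of the same length, 29.6% held at least 1 match and 8.6% at least 2, and a match is no evidence of binding. MT1F had no entry in the promoter table.

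JDP2, an AP-1 repressor, measured 3.51, 3.27 and 2.49 CPM in shRNA2 and 14.4, 14 and 8.79 CPM in shRNA3. BMF, which encodes a BH3-only protein that promotes apoptosis, measured 1.81, 2.76 and 2.33 CPM in shRNA2 and 6.60, 6.19 and 6.75 CPM in shRNA3. DUSP10, a phosphatase that acts on the stress kinases p38 and JNK, measured 4.10, 3.44 and 3.88 CPM in shRNA2 and 11.7, 10.1 and 8.69 CPM in shRNA3. These genes had no overlap between the hairpins, with log2 fold changes of 2.0 ± 0.27 (adjusted p = 0.0136), 1.50 ± 0.35 (adjusted p = 0.0354) and 1.42 ± 0.18 (adjusted p = 0.0134). CBFB, the non-DNA-binding partner of RUNX factors, measured 39.9, 42 and 41.2 CPM in shRNA2 and 95, 93.9 and 75.3 CPM in shRNA3. Its log2 fold change was 1.10 ± 0.12 (adjusted p = 0.0092). CBFB measured 63.8 to 66.7 CPM in NC, between the hairpins.

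Genes apart and lower in shRNA3 were led by ATOH8 (ENSG00000168874, chr2:85751344-85788066, plus strand), a helix-loop-helix transcription factor. ATOH8 measured 8.49, 8.34 and 9.42 CPM in shRNA2 and 0.148, 0.292 and 1.09 CPM in shRNA3. It fell by 3.99 ± 0.66 on the log2 scale (adjusted p = 0.0245). SEMA5A, an axon guidance protein of the semaphorin family, measured 7.26, 9.13 and 7.15 CPM in shRNA2 and 0.742, 0.947 and 1.09 CPM in shRNA3. GRIP1, a scaffold with PDZ domains, measured 7.67, 7.27 and 6.59 CPM in shRNA2 and 1.56, 0.875 and 1.64 CPM in shRNA3. Their log2 fold changes were -3.06 ± 0.59 (adjusted p = 0.0269) and -2.39 ± 0.44 (adjusted p = 0.0266). In NC, ATOH8 measured 0.0505 to 0.443, SEMA5A 1.06 to 1.63 and GRIP1 0.443 to 1.17 CPM.

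In GNG4, METTL7A and BTBD16, library 3 was almost level with its group mates. GNG4 (ENSG00000168243, chr1:235547687-235650754, minus strand), a G-protein gamma subunit, measured 9.78, 11.6 and 9.25 CPM in shRNA2 and 2.82, 2.48 and 2.73 CPM in shRNA3. METTL7A, a methyltransferase-like protein, measured 12.1, 12.1 and 14.2 CPM in shRNA2 and 3.93, 3.50 and 3.72 CPM in shRNA3. BTBD16 measured 7.55, 7.95 and 7.76 CPM in shRNA2 and 2.89, 3.06 and 2.78 CPM in shRNA3. Positions were 0.98, 1.0 and 1.06, and log2 fold changes were -1.93 ± 0.22 (adjusted p = 0.0092), -1.78 ± 0.23 (adjusted p = 0.0134) and -1.41 ± 0.26 (adjusted p = 0.0266). In NC, GNG4 measured 7.83 to 8.93, METTL7A 1.01 to 1.13 and BTBD16 0.246 to 0.254 CPM.

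The other 4 lower genes act in the matrix, at the cell surface or in metabolism. ADAM12, a membrane metalloprotease, measured 17.7, 18.9 and 17.5 CPM in shRNA2 and 7.42, 6.92 and 5.56 CPM in shRNA3. TENM3, a teneurin adhesion protein, measured 21.1, 27.6 and 23.7 CPM in shRNA2 and 8.60, 7.87 and 9.63 CPM in shRNA3. ADAM12 and TENM3 fell by 1.44 ± 0.36 (adjusted p = 0.0408) and 1.47 ± 0.37 (adjusted p = 0.0414) on the log2 scale. P3H2, a prolyl 3-hydroxylase of basement membrane collagen, measured 9.43, 10.9 and 9.31 CPM in shRNA2 and 3.26, 4.01 and 3.72 CPM in shRNA3. AOX1, an aldehyde oxidase, measured 15.5, 15.6 and 14.2 CPM in shRNA2 and 6.08, 6.49 and 5.07 CPM in shRNA3. P3H2 and AOX1 fell by 1.43 ± 0.36 (adjusted p = 0.0408) and 1.36 ± 0.26 (adjusted p = 0.0269). In NC, ADAM12 measured 2.95 to 3.86, TENM3 10.6 to 12.2, P3H2 108 to 114 and AOX1 3.15 to 6.06 CPM.

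**Figure D2:**
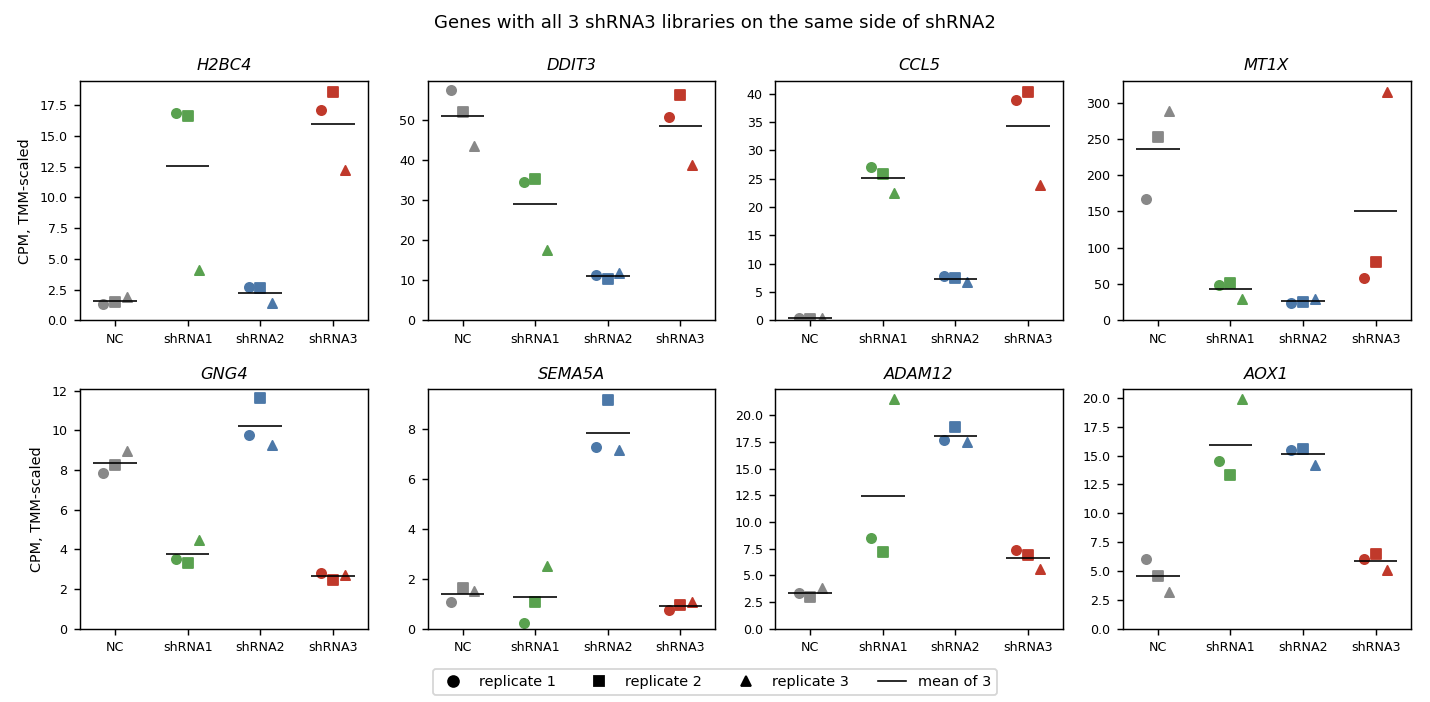
Points are TMM-scaled CPM in each of the 12 libraries for 8 genes, with symbols for replicates and a bar for the mean of 3. In each panel the 3 shRNA3 libraries lie on the same side of the 3 shRNA2 libraries, as the choice of these genes required. An example is H2BC4, at 12.2 to 18.6 against 1.38 to 2.69 CPM.

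All 20 of these genes were also called without library 3, as were all 1462 called genes. The 20 were chosen on the same values, so these refits are no separate support. With library 3 as the only shRNA3 library, the log2 fold changes of the 10 higher lay between 0.89 and 3.6. Those of the 10 lower lay between -2.98 and -1.31. Some called genes had all 3 shRNA3 libraries together without a 2-fold change on the log2(CPM + 1) scale. Over all called genes, 233 had every shRNA3 library beyond every shRNA2 library and a position of at least 0.667, 109 higher and 124 lower. All 3 shRNA3 libraries lay beyond all 3 shRNA2 libraries in 4748 of the tested genes (27.1%), called or not.

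AGO2, the Argonaute protein that cuts messenger RNAs matched by a guide strand, was among these close-set genes. It measured 79.9, 80.2 and 78.3 CPM in shRNA2 and 162, 145 and 157 CPM in shRNA3. Its log2 fold change was 0.96 ± 0.12 (adjusted p = 0.0134) with all libraries and 0.99 with library 3 alone (adjusted p = 0.00462). MANF, a secreted factor induced by stress of the endoplasmic reticulum, measured 31.5, 27.6 and 27.9 CPM in shRNA2 and 56.0, 53.7 and 56.3 CPM in shRNA3. It rose by 0.93 ± 0.13 (adjusted p = 0.0155), with library 3 at a position of 1.04. DUSP6, the phosphatase that feeds back on ERK, measured 64.9, 67.3 and 59.6 CPM in shRNA2 and 135, 121 and 130 CPM in shRNA3, and rose by 1.01 ± 0.20 (adjusted p = 0.0269). KRT19 measured 984, 918 and 960 CPM in shRNA2 and 478, 493 and 587 CPM in shRNA3, and fell by 0.88 ± 0.17 (adjusted p = 0.0269).

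Genes higher in shRNA3 libraries 1 and 2, with library 3 at the shRNA2 level, reached far larger differences. CCN1 (ENSG00000142871, chr1:85580761-85583962, plus strand), a matricellular protein and target of YAP, measured 28.9, 25.2 and 22.9 CPM in shRNA2 and 935, 934 and 33.7 CPM in shRNA3. Its level in the NC libraries was 946, 913 and 815 CPM, so for CCN1 libraries 1 and 2 lay near the control and library 3 near shRNA2. PER1, a circadian repressor, measured 27.0, 25.9 and 26 CPM in shRNA2 and 886, 806 and 11.4 CPM in shRNA3. TSC22D3, which encodes the glucocorticoid-induced leucine zipper protein, measured 15.3, 16.3 and 17 CPM in shRNA2 and 913, 759 and 15.8 CPM in shRNA3. In NC, PER1 measured 48.5 to 65.6 CPM and TSC22D3 15.8 to 22.3 CPM. For these genes, libraries 1 and 2 lay above every other library of the series.

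TMEM265, a transmembrane protein gene that overlaps SRCAP on its own strand, had 0 counts in shRNA2, in shRNA1 and in shRNA3 library 3. It measured 137 and 155 CPM in shRNA3 libraries 1 and 2 and 29 to 35.6 CPM in NC. KLF3-AS1, an RNA antisense to KLF3, measured 1.46, 0.789 and 1.38 CPM in shRNA2 and 114, 154 and 0.844 CPM in shRNA3. SCIRT, a long noncoding RNA, measured 2.34, 3.38 and 3.66 CPM in shRNA2 and 115, 134 and 4.02 CPM in shRNA3. These transcripts overlap other genes, on the same strand for TMEM265 and on the other strand for KLF3-AS1 and SCIRT, and reads of overlapping genes may not be told apart. SLC2A14, a close copy of the glucose transporter gene SLC2A3, measured 2.99, 0.451 and 0.720 CPM in shRNA2 and 132, 120 and 1.34 CPM in shRNA3. H2BC21, a histone H2B gene, measured 3.40, 2.09 and 2.11 CPM in shRNA2 and 113, 110 and 4.57 CPM in shRNA3.

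With all libraries kept, these 8 genes were called higher in shRNA3, at adjusted p between 0.0266 and 0.0461 (edgeR's quasi-likelihood test). Without library 3 their adjusted p lay between 3.01e-11 and 0.000129 by the same test. The 8 genes were chosen for the size of the difference in libraries 1 and 2, so these values are no separate support. With library 3 as the only shRNA3 library none of the 8 was called, at adjusted p of 0.294 to 1.0. Their group means are therefore means over 2 high libraries and a low one.

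The 8 genes with the largest differences among those lower in shRNA3 libraries 1 and 2, with library 3 at the shRNA2 level, were near absence in those libraries. HPS6 (ENSG00000166189, chr10:102065390-102068038, plus strand), a subunit of a complex for lysosome-related organelles, measured 48.7, 44.6 and 44.9 CPM in shRNA2 and 1.04, 0.292 and 46.6 CPM in shRNA3. PRMT6, an arginine methyltransferase, measured 32.4, 29.5 and 32.3 CPM in shRNA2 and 0.371, 0.219 and 30.9 CPM in shRNA3. FADD, the adaptor of death receptors, measured 62.8, 58.3 and 59.7 CPM in shRNA2 and 2.52, 2.62 and 53.3 CPM in shRNA3. For each of them library 3 was within or just outside the shRNA2 range, and libraries 1 and 2 lay far below all other libraries of the series. MOCS3, an enzyme of molybdenum cofactor synthesis, measured 18.0, 17.4 and 18.7 CPM in shRNA2 and 0.148, 0.219 and 19.0 CPM in shRNA3. ZBTB22, a zinc finger protein, measured 19.1, 16.2 and 17.2 CPM in shRNA2 and had 0 counts in shRNA3 libraries 1 and 2, with 16.3 CPM in library 3. ZBTB9, of the same zinc finger class, measured 21.1, 22.4 and 21.7 CPM in shRNA2 and 0.371, 0.656 and 25.4 CPM in shRNA3. Their loss from libraries 1 and 2 was near complete. SLC29A3, a nucleoside transporter, measured 24.4, 18.3 and 24.9 CPM in shRNA2 and 0.593, 0.510 and 23 CPM in shRNA3. TMEM177 measured 25.8, 24.7 and 31.0 CPM in shRNA2 and 1.19, 0.729 and 30.1 CPM in shRNA3.

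None of these 8 genes passed the test with all libraries, at adjusted p of 0.209 to 0.377, although the mean of libraries 1 and 2 was at least 23.4-fold below shRNA2 in each. Without library 3 all 8 were called by edgeR's quasi-likelihood test, at adjusted p between 3.01e-11 and 1.34e-08. They too were chosen for the size of that difference, so these values are no separate support. Among genes with library 3 at the shRNA2 level, 697 of the 1615 higher and 52 of the 2058 lower were called with all libraries.

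**Figure D3:**
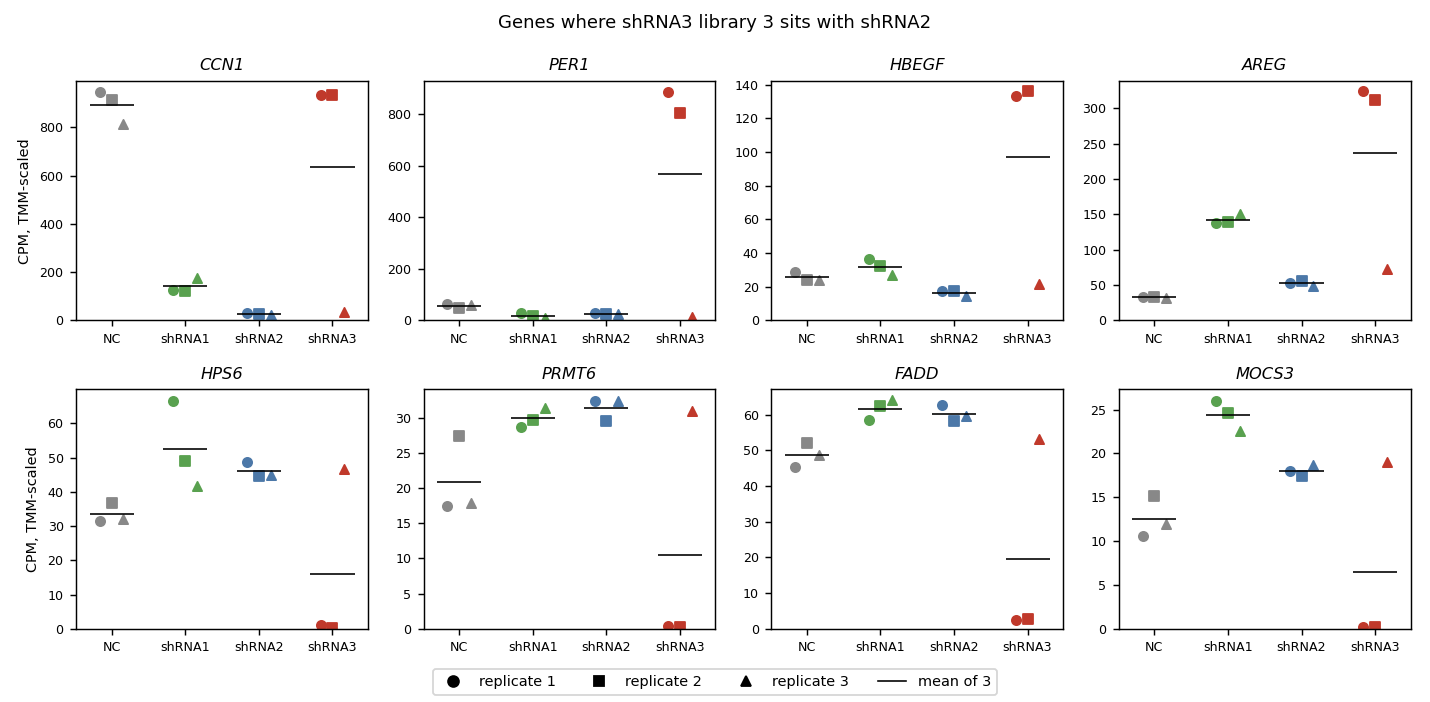
Points are TMM-scaled CPM in each of the 12 libraries for 8 genes, with symbols for replicates and a bar for the mean of 3. Replicate 3 of shRNA3 lies at the level of shRNA2 in each panel, for example 33.7 CPM against 22.9 to 28.9 CPM for CCN1, while replicates 1 and 2 lie far off.

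Genes with a single coding exon were unevenly spread over the classes. Among tested protein-coding genes, 6.18% had a single coding exon in the principal transcript of GENCODE release 29. That share was 11.6% among genes lower in shRNA3 libraries 1 and 2 with library 3 at the shRNA2 level, 21% where the difference was at least 2 in log2(CPM + 1), and 34.5% (20 of 58) where it was at least 3. For genes higher in libraries 1 and 2 it was 6.92%, 11.2% and 5.0% at the same steps. Read the other way, 25.2% of the 860 genes with a single coding exon were lower in libraries 1 and 2 with library 3 at shRNA2, against 11.4% of genes with 6 to 10 coding exons. The median of library 3 minus shRNA2 for the single-exon genes was 0.0396 in log2(CPM + 1). Among genes apart, 8 of the 28 higher and 0 of 37 lower had a single coding exon. These shares are descriptions of the classes and carry no test.

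**Figure D4:**
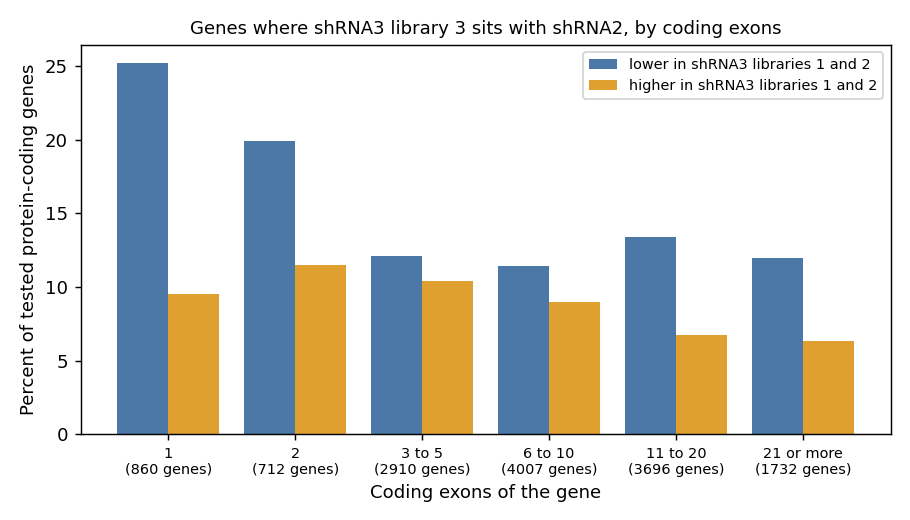
Bars give the percent of tested protein-coding genes that were lower (blue) or higher (orange) in shRNA3 libraries 1 and 2 with library 3 at the shRNA2 level, by number of coding exons. The share lower was 25.2% for 1 coding exon and 19.9% for 2, and between 11.4% and 13.4% for longer classes.

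In the 420 genes past shRNA2, library 3 lay on the opposite side of the shRNA2 mean, by more than 0.333 of the difference of its group mates. In 38 of them it was at least 2-fold from that mean and beyond all shRNA2 libraries. The genes named here were chosen for the largest such distances and do not stand for the class. RASA4B, a Ras GTPase-activating protein gene with close copies, measured 10.5, 8.91 and 8.53 CPM in shRNA2 and 45.8, 57.2 and 2.83 CPM in shRNA3. DLX1, a homeobox factor, measured 7.85, 7.33 and 7.04 CPM in shRNA2 and 2.45, 3.43 and 16.7 CPM in shRNA3. Neither was called with all libraries, at adjusted p of 0.0929 and 0.981, and library 3 alone differed from shRNA2 in the other direction than its group mates. AC240274.1 followed the pattern of DLX1, at 9.95 to 14.7 CPM in shRNA2 and 2.74, 2.99 and 30.4 CPM in shRNA3. RGPD6, which has near-identical copies, spread from 1.76 to 30.7 CPM within shRNA2 itself, and measured 46.9, 33.1 and 0.844 CPM in shRNA3. ZBTB45P1, a processed pseudogene, measured 3.04 to 4.96 CPM in shRNA2 and 9.79, 13.9 and 0 CPM in shRNA3.

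Gene groups were then described, from 30 lists. Over all tested genes the median difference from shRNA2 was -0.01 for shRNA3 libraries 1 and 2 and 0 for library 3, in log2(CPM + 1), and 6.43% of genes were called higher and 1.91% lower. Without library 3, 28.5% of the genes in that fit were called higher and 30.7% lower. List counts without library 3 are to be read beside those shares.

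Genes of the ATF4 response, which couples amino acid shortage and other stresses to transcription, had list medians above shRNA2 in library 3 as well as in libraries 1 and 2. Of 28 tested members 13 were called higher and 1 lower, and 4 were called higher and 0 lower with library 3 as the only shRNA3 library. The list median was 0.46 for libraries 1 and 2 and 0.50 for library 3, in log2(CPM + 1). NUPR1, a stress-induced nuclear protein, measured 1.41, 1.07 and 1.77 CPM in shRNA2 and 24.8, 26.7 and 3.77 CPM in shRNA3. ATF3, a stress-induced repressor, measured 14.7, 9.81 and 12.1 CPM in shRNA2 and 170, 151 and 19.0 CPM in shRNA3. For NUPR1 and ATF3 library 3 was above shRNA2 but closer to it than to its group mates, unlike DDIT3 and ATF4. CEBPB, a partner of these factors, measured 285, 292 and 288 CPM in shRNA2 and 1303, 1370 and 430 CPM in shRNA3.

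Chaperones of the unfolded protein response separated by library. HSPA5, the main chaperone of the endoplasmic reticulum, measured 516, 504 and 511 CPM in shRNA2 and 3765, 3786 and 510 CPM in shRNA3. HSP90B1, its partner chaperone, measured 530, 534 and 528 CPM in shRNA2 and 1634, 1594 and 551 CPM in shRNA3. Both had library 3 at the shRNA2 level, while MANF had it at the level of libraries 1 and 2. DNAJB9 and HERPUD1, which act in the disposal of misfolded proteins, had library 3 between. DNAJB9 measured 5.56, 5.30 and 5.71 CPM in shRNA2 and 25.4, 19.2 and 9.68 CPM in shRNA3, and HERPUD1 measured 28.9, 32.9 and 30.7 CPM in shRNA2 and 93.4, 89.1 and 44.4 CPM in shRNA3. Of 18 tested members 6 were called higher and 0 lower, with list medians of 0.73 for libraries 1 and 2 and 0.05 for library 3.

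Metallothioneins had the highest median for library 3 among the 30 lists. Of 10 members 5 passed the filter and 2, MT1F and MT1X, were called higher. The list median was 0.77 for libraries 1 and 2 and 1.58 for library 3. With so few members, the median for library 3 is the value of MT1F itself. Members were not uniform, and MT1B and MT1E are named here after their values were seen. MT1B was at -1.4 for libraries 1 and 2 and 2.32 for library 3. MT1E changed little, at -0.03 and 0.11.

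Inflammatory genes had high values in shRNA3 libraries 1 and 2, while library 3 lay nearer to shRNA2 in the list medians. Of 27 tested cytokines and chemokines 10 were called higher and 0 lower, and of 20 NF-kB targets and acute-phase genes 13 were called higher and 0 lower. Their medians were 1.26 and 1.40 for libraries 1 and 2, against 0.12 and 0.34 for library 3. Among cytokines and chemokines higher in libraries 1 and 2, library 3 lay with shRNA2 in 11, between in 4 and with libraries 1 and 2 in 1. IL24, a cytokine of the IL-10 family, measured 1.23, 0.620 and 1.33 CPM in shRNA2 and 98.6, 118 and 9.29 CPM in shRNA3, and rose by 6.14 ± 0.81 on the log2 scale (adjusted p = 0.0134). With library 3 alone the log2 fold change of IL24 was 3.14 (adjusted p = 0.00249), so the gene separated the hairpins in every library, at 2 different levels. IL20, of the same family and also on chromosome 1, measured 0.410, 0.395 and 0.332 CPM in shRNA2 and 21.4, 29.2 and 0.695 CPM in shRNA3. IL33, an alarmin, measured 0.351, 0.958 and 0.388 CPM in shRNA2 and 7.49, 9.33 and 2.83 CPM in shRNA3. CCL28, a mucosal chemokine, measured 1.58 to 1.76 CPM in shRNA2 and 7.42, 6.49 and 3.68 CPM in shRNA3. IL33 and CCL28 had library 3 about midway between the others, at positions of 0.5 and 0.52.

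Among NF-kB targets, NFKB2, a subunit of the factor itself, measured 50, 48.0 and 48.7 CPM in shRNA2 and 104, 104 and 76.6 CPM in shRNA3. It rose by 0.96 ± 0.14 (adjusted p = 0.0174). CFB, complement factor B, measured 31.8, 32.6 and 34.4 CPM in shRNA2 and 146, 130 and 58.8 CPM in shRNA3. The groups of NFKB2 and CFB did not overlap, and both were also called with library 3 alone, at adjusted p of 0.0221 and 0.0166. The acute-phase gene SAA1 measured 0.585, 1.13 and 1.11 CPM in shRNA2 and 9.05, 11.8 and 2.09 CPM in shRNA3. Its close copy SAA2 had at most 0.0585 CPM in shRNA2 and measured 1.78, 2.41 and 0.199 CPM in shRNA3. In NC, SAA1 stood at 128 to 137 CPM, so that both hairpins were far below the control for this gene.

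EGF-family ligands moved in both directions between the hairpins. Of 13 tested ligands and ERBB receptors 2 were called higher and 2 lower. HBEGF, which binds EGFR and ERBB4, measured 17.7, 17.6 and 14.2 CPM in shRNA2 and 133, 136 and 21.8 CPM in shRNA3. AREG, amphiregulin, a ligand of EGFR, measured 52.6, 55.1 and 49.0 CPM in shRNA2 and 324, 312 and 73.0 CPM in shRNA3. Library 3 was above all 3 shRNA2 libraries for both ligands, but nearer to them than to its group mates. HBEGF and AREG rose by 2.55 ± 0.51 (adjusted p = 0.0274) and 2.18 ± 0.41 (adjusted p = 0.0267). The ERBB3 and ERBB4 ligand NRG1 measured 58.9, 55.6 and 56.6 CPM in shRNA2 and 18.8, 22.4 and 32.5 CPM in shRNA3, and the ERBB4 ligand NRG4 measured 9.75 to 12.1 CPM in shRNA2 and 3.49, 4.08 and 6.75 CPM in shRNA3. NRG1 and NRG4 fell by 1.21 ± 0.28 (adjusted p = 0.0341) and 1.18 ± 0.28 (adjusted p = 0.0366). EPGN, epigen, measured 13.8, 15.8 and 13.5 CPM in shRNA2 and 4.08, 5.68 and 17.6 CPM in shRNA3, and was not called (adjusted p = 0.353). The start of AREG is shown as that of an EGFR ligand whose shRNA3 libraries split. Capitals mark both strands of the cAMP response element letters TGACGT in the RefSeq window of 300 bases (GRCh38.p14, chr4:74444886-74445185, plus strand).
AREG: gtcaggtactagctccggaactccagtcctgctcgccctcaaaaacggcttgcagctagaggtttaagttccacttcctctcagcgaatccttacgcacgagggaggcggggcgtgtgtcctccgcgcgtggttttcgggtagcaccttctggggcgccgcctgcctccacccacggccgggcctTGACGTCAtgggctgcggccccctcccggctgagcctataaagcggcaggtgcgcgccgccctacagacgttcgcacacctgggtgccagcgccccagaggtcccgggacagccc
Its 2 matches lie on opposite strands and overlap, and 8.0% of the 35116 promoters held at least 1 match.

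Output and feedback genes of the ERK pathway followed the same split. Of 21 tested members 10 were called higher and 0 lower with all libraries, and 0 were called with library 3 as the only shRNA3 library. DUSP5, a nuclear phosphatase for ERK, measured 63.1, 63.0 and 64.6 CPM in shRNA2 and 1379, 1249 and 85.6 CPM in shRNA3. FOSL1, an AP-1 subunit induced by ERK, measured 60.9, 51.3 and 60.3 CPM in shRNA2 and 437, 443 and 91.6 CPM in shRNA3. SPRY4, a Sprouty inhibitor, measured 21.7, 26.3 and 21.1 CPM in shRNA2 and 72.3, 70.5 and 33.9 CPM in shRNA3. For all 3 genes library 3 was the lowest of shRNA3 yet above shRNA2, whereas DUSP6 was even across shRNA3. The list median was 0.78 for libraries 1 and 2 and 0.23 for library 3.

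As lists, hypoxia and cholesterol genes were higher in shRNA3 libraries 1 and 2 and not in library 3. Of 36 hypoxia and glycolysis genes 12 were called higher with all libraries, and 24 higher and 5 lower without library 3. None was called with library 3 alone, and the list medians were 0.56 for libraries 1 and 2 and -0.02 for library 3. VEGFA, the angiogenic growth factor, measured 48.4, 50.5 and 46.9 CPM in shRNA2 and 276, 314 and 80.8 CPM in shRNA3. SLC2A3, a glucose transporter, measured 74.6, 103 and 106 CPM in shRNA2 and 627, 580 and 113 CPM in shRNA3. ALDOC, a glycolytic aldolase, measured 19.6, 20.5 and 27.4 CPM in shRNA2 and 203, 209 and 52.2 CPM in shRNA3. P4HA1, a collagen prolyl hydroxylase, had a smaller difference, at 37.4 to 39.8 CPM in shRNA2 and 76.5, 80.1 and 56.8 CPM in shRNA3. Library 3 lay above every shRNA2 library in these 4 named genes, at positions of 0.28 for VEGFA, 0.1 for SLC2A3, 0.38 for ALDOC and 0.54 for P4HA1, while the list as a whole had a median near 0.

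Of 25 cholesterol synthesis genes 8 were called higher with all libraries, 18 without library 3 and 0 with library 3 alone. INSIG1, which holds back sterol-regulated transcription, measured 37.8, 40.6 and 37.9 CPM in shRNA2 and 386, 358 and 28.4 CPM in shRNA3. FDFT1, squalene synthase, measured 164, 144 and 143 CPM in shRNA2 and 953, 864 and 103 CPM in shRNA3. In both genes library 3 lay below every shRNA2 library. MVD, of the mevalonate pathway, measured 18.3 to 21.1 CPM in shRNA2 and 67.2, 66.9 and 24.8 CPM in shRNA3. The list medians were 0.88 for libraries 1 and 2 and -0.21 for library 3.

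Among p53 targets, 8 of 24 were called higher and 1 lower. CDKN1A, the p21 inhibitor of cyclin-dependent kinases, measured 106, 110 and 113 CPM in shRNA2 and 444, 506 and 174 CPM in shRNA3. GDF15, a stress-induced secreted factor, measured 70.2, 65.6 and 65.9 CPM in shRNA2 and 788, 873 and 185 CPM in shRNA3. CDKN1A was also called with library 3 alone (adjusted p = 0.0304) and GDF15 was not (adjusted p = 0.248). BBC3, which encodes the apoptosis inducer PUMA, measured 18.5 to 19.4 CPM in shRNA2 and 156, 157 and 28.9 CPM in shRNA3. GADD45A, a growth arrest gene, measured 33.3 to 35.2 CPM in shRNA2 and 368, 389 and 43.6 CPM in shRNA3.

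The RNA interference machinery is of interest when hairpins are compared. Of 18 tested genes 1, AGO2, was called higher and 2 lower with all libraries, while 2 were higher and 13 lower without library 3. The list medians were -0.76 for libraries 1 and 2 and 0.02 for library 3. TNRC6A, the GW182 partner of Argonautes in silencing, measured 71.1, 70.4 and 73.0 CPM in shRNA2 and 26.5, 24.6 and 54.0 CPM in shRNA3. AGO1 measured 44.9, 44.3 and 43.5 CPM in shRNA2 and 23.6, 19.6 and 34.8 CPM in shRNA3. TNRC6A and AGO1 fell by 1.02 ± 0.25 (adjusted p = 0.0385) and 0.76 ± 0.20 (adjusted p = 0.0434). DICER1 measured 66.9, 84.7 and 75.3 CPM in shRNA2 and 28.4, 23.8 and 62.2 CPM in shRNA3, and missed the threshold (adjusted p = 0.0635). DGCR8, the partner of DROSHA, measured 50.7, 44.0 and 52.9 CPM in shRNA2 and 12.8, 10.6 and 67.2 CPM in shRNA3. XPO5 measured 129, 133 and 135 CPM in shRNA2 and 59.6, 59.7 and 158 CPM in shRNA3. For DGCR8 and XPO5 library 3 was above shRNA2 while its group mates were below, and neither was called with all libraries (adjusted p = 0.371 and 0.256).

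Keratins and other squamous genes also differed by library. Of 10 tested type I keratins 3 were called higher and 1, KRT19, lower, and of 11 type II keratins 0 were called higher and 1 lower. KRT14, a keratin of basal cells, measured 24.2, 24.2 and 25.1 CPM in shRNA2 and 230, 192 and 25.1 CPM in shRNA3. KRT15 measured 49.7, 52.6 and 47.0 CPM in shRNA2 and 283, 298 and 67.4 CPM in shRNA3. KRT16, a keratin of activated epithelium, measured 14.7 to 16 CPM in shRNA2 and 83.4, 80.5 and 27.9 CPM in shRNA3. These 3 rose in shRNA3, each with library 3 much lower than its group mates. KRT6A, whose sequence is shared in large part with KRT6B and KRT6C, measured 434, 428 and 424 CPM in shRNA2 and 216, 186 and 232 CPM in shRNA3, with all 3 libraries apart. It fell by 1.02 ± 0.28 (adjusted p = 0.0493). KRT7, a keratin of simple epithelia, measured 2247, 2086 and 2194 CPM in shRNA2 and 729, 826 and 2110 CPM in shRNA3, and was not called (adjusted p = 0.128).

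Of 15 tested S100 genes 5 were called higher and 0 lower. S100A8 had 0 counts in every shRNA2 library and measured 0.593, 0.656 and 0.497 CPM in shRNA3, which is at least 3.42-fold higher when set against a floor of 3 counts per library. S100A9, its partner in calprotectin, measured 1.93, 1.75 and 1.27 CPM in shRNA2 and 11.6, 11.5 and 5.96 CPM in shRNA3, and rose by 2.54 ± 0.33 (adjusted p = 0.0134). In NC, S100A9 stood at 209 to 261 CPM, so that shRNA3 differed from shRNA2 at a level far below the control. S100P measured 96.1 to 104 CPM in shRNA2 and 360, 422 and 108 CPM in shRNA3.

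Matrix and EMT (epithelial-mesenchymal transition) genes differed mainly in libraries 1 and 2. Of 42 tested matrix and EMT genes 11 were called higher and 0 lower, with 31 higher and 1 lower without library 3 and 1 higher with library 3 alone. LAMB3, a laminin chain of the epithelial basement membrane, measured 602, 596 and 610 CPM in shRNA2 and 3179, 2995 and 972 CPM in shRNA3. LAMB3 was called with all libraries (adjusted p = 0.0248) and with library 3 alone (adjusted p = 0.0239). CCN2, a relative of CCN1, measured 0.995, 0.564 and 0.720 CPM in shRNA2 and 8.68, 10.4 and 0.745 CPM in shRNA3. SNAI2, a repressor of epithelial genes, measured 12.4 to 14.2 CPM in shRNA2 and 28.9, 27.8 and 20.5 CPM in shRNA3. ITGB6, the epithelial integrin beta 6 chain, was at most 0.225 CPM in shRNA2 and measured 1.71, 1.09 and 0.596 CPM in shRNA3, against 33.8 to 39.3 CPM in NC. The list medians were 0.85 for libraries 1 and 2 and -0.19 for library 3.

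**Figure D5:**
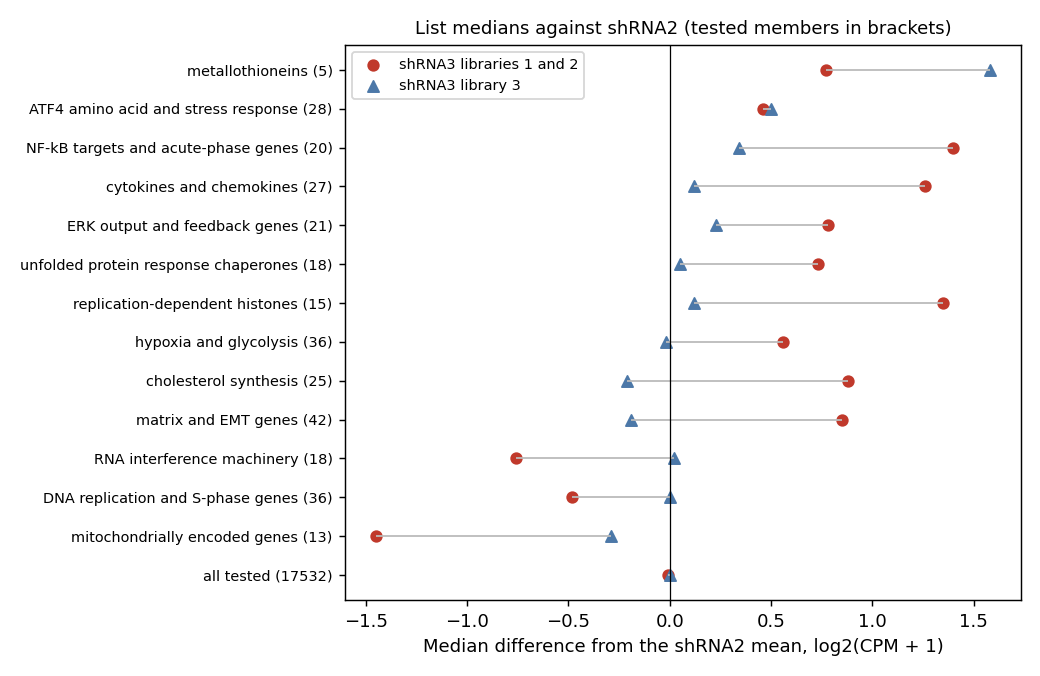
Points give the median difference from the shRNA2 mean over the tested members of each list, in log2(CPM + 1), for shRNA3 libraries 1 and 2 (red circles) and library 3 (blue triangles). The ATF4 list has both near 0.5, metallothioneins have library 3 higher at 1.58, and most other lists have library 3 near 0.

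Some replication-dependent histones, whose messages lack poly(A) tails for the most part, rose in shRNA3. Of 37 listed genes 15 were tested, and 7 were called higher and 0 lower. None was called with library 3 as the only shRNA3 library. H1-2, a linker histone, measured 16.9, 15.1 and 12.8 CPM in shRNA2 and 122, 150 and 57.0 CPM in shRNA3. H2BC5 measured 3.63, 2.99 and 1.55 CPM in shRNA2 and 33.6, 35.6 and 8.34 CPM in shRNA3. Library 3 was above shRNA2 in both, though the list median was 0.12 for library 3 and 1.35 for libraries 1 and 2. Histone genes are close copies, so reads may be divided among them with some error.

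Cell cycle genes showed few calls with all libraries. Of 36 S-phase genes 1 was called higher and 0 lower, against 3 higher and 27 lower without library 3. CDT1, which licenses replication origins, measured 92.3, 86.9 and 96.9 CPM in shRNA2 and 167, 153 and 129 CPM in shRNA3, and was the gene called (adjusted p = 0.0272). CCNE2, cyclin E2, measured 23.7, 24.1 and 23.7 CPM in shRNA2 and 5.34, 6.12 and 29.7 CPM in shRNA3. POLA1, the primase-associated polymerase, measured 74.6 to 76.9 CPM in shRNA2 and 29.4, 29.2 and 62.2 CPM in shRNA3. CCNE2 and POLA1 were not called with all libraries, at adjusted p of 0.295 and 0.0827. Of 36 mitotic genes 1 was called higher and 2 lower, against 18 higher and 9 lower without library 3. Over all genes in that fit the shares were 28.5% higher and 30.7% lower. Beside these, the S-phase count lower and the mitotic count higher were above the background. The S-phase count higher and the mitotic count lower were not, and neither list was tested as a set. PLK1 and AURKA, mitotic kinases, fell by 0.59 ± 0.13 (adjusted p = 0.0314) and 0.47 ± 0.12 (adjusted p = 0.0385), with all 3 shRNA3 libraries below shRNA2. PLK1 measured 280, 252 and 256 CPM in shRNA2 and 170, 163 and 191 CPM in shRNA3. AURKA measured 145 to 155 CPM in shRNA2 and 113, 96.3 and 114 CPM in shRNA3. CENPF, a kinetochore protein, measured 246 to 284 CPM in shRNA2 and 77.3, 74.2 and 220 CPM in shRNA3, and missed the threshold (adjusted p = 0.0657).

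Interferon-stimulated genes were called higher in 9 of 39 tested members and lower in 1, against 18 higher and 10 lower without library 3 and 2 higher and 0 lower with library 3 alone. ISG15, a ubiquitin-like protein, measured 112, 100 and 98.5 CPM in shRNA2 and 418, 434 and 191 CPM in shRNA3. IFITM1, which blocks viral entry, measured 259, 258 and 265 CPM in shRNA2 and 1933, 1761 and 452 CPM in shRNA3. Both rose, and library 3 was above every shRNA2 library in each. IRF7, a regulator of interferon genes, measured 9.36 to 10.3 CPM in shRNA2 and 64.4, 74.8 and 13.4 CPM in shRNA3. The member called lower was IFIT2, an interferon-induced RNA-binding protein named here after its values were seen, which measured 52.1, 55.3 and 52.1 CPM in shRNA2 and 19.5, 16.3 and 35.7 CPM in shRNA3 and fell by 1.15 ± 0.27 on the log2 scale (adjusted p = 0.0372).

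None of the 13 mitochondrially encoded genes was called with all libraries by edgeR's quasi-likelihood test, and 1 was higher and 8 lower without library 3. MT-CYB, cytochrome b, measured 863, 833 and 822 CPM in shRNA2 and 152, 141 and 808 CPM in shRNA3. MT-CO3, a subunit of cytochrome c oxidase, measured 1973, 1896 and 2039 CPM in shRNA2 and 655, 647 and 1642 CPM in shRNA3. The list medians were -1.45 for libraries 1 and 2 and -0.29 for library 3, in log2(CPM + 1).

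The shRNA1 libraries, which did not enter the placement, were set on the same scale. Among genes with library 3 at the shRNA2 level, the shRNA1 mean was also nearer shRNA2 (position under 0.333) in 82.9% of those higher and 87.7% of those lower in shRNA3 libraries 1 and 2. The NC mean was nearer shRNA2 in 57.2% and 53.3% of them, and nearer libraries 1 and 2 in 24.8% and 26.2%. Among the genes apart, shRNA1 was nearer shRNA3 (position over 0.667) in 9 and nearer shRNA2 in 12 of the 28 higher, and in 23 and 15 of the 48 lower. NC was nearer shRNA3 in 15 and nearer shRNA2 in 7 of the 28 higher genes apart, and in 32 and 12 of the 48 lower. For CCL5, NC measured 0.246 to 0.505 CPM and shRNA1 22.5 to 27.1 CPM, so shRNA2 was the lowest of the 3 hairpins and all were above control. For DDIT3, NC measured 43.7 to 57.5 CPM, at the level of shRNA3, and shRNA2 was below every other library of the series. For AGO2, shRNA1 measured 194 to 243 CPM and NC 50.6 to 56.4 CPM, which put shRNA3 between shRNA1 and shRNA2. METTL7A was at 1.01 to 1.70 CPM in NC and shRNA1, and shRNA2 held the highest values of all groups.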

How the data were processed

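Gene expression was measured by RNA-seq of total RNA in 12 libraries of 4 groups (3 each), of which the 6 of shRNA2 and shRNA3 were compared. The authors deposited a table of estimated counts per gene, unscaled, in which 13.8% of values are not whole. The submitters' processing notes name GRCh38, HISAT2 and HTSeq 0.11.2, with no roles. All 12 columns matched a sample title (columns not matched: 0). Positions, overlaps and coding exons came from GENCODE release 29 on GRCh38 (97.2% of tested genes matched), and promoters from RefSeq.

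Counts were rounded, filtered with filterByExpr (minimum count 10, minimum total 15; 17532 genes left) and scaled by TMM. A single robust model of all 12 libraries (edgeR 4.0.16 under R 4.3.3) gave a two-sided quasi-likelihood test of shRNA3 minus shRNA2, with Benjamini-Hochberg adjustment over all tested genes and a threshold of 0.05 (8 residual degrees of freedom). The fit was tested on simulated data. That test is not read as a check on the calls made here, because a library of the compared groups lay far from its group mates. CPM are TMM-scaled, except the bounds for FMOD, which use library totals. The log2(CPM + 1) scale uses a pseudocount of 1. Positions and their cuts are described in the results.

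Named genes were chosen by a rule. Among genes of at least 5 CPM in the higher group these were the 10 higher and 10 lower genes apart and called with the widest gap between groups; the 8 higher and 8 lower with the largest difference where library 3 lay with shRNA2; and 3 and 3 past shRNA2. List members had no minimum CPM: for each list these were up to 4 called members with the smallest p and up to 4 with library 3 at shRNA2. Some genes that the rule chose are not reported here. The members and lists were chosen with earlier results of these data known. Alternatives were other scalings, filters, cuts, DESeq2 1.42.0, a replicate block and leaving out each library.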

Additional observations from a re-analysis of the deposited data

How the results depend on the processing

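The number of genes called depended on most choices. Against 1462, it was 1652 with DESeq2 size factors, 1717 with a mean of at least 50 counts, 596 with library totals, 911 without a filter on low counts, 3793 with DESeq2's Wald test and 244 with library 3 as the only shRNA3 library. It was 4 at an adjusted p under 0.01 and 974 where the log2 change also had to reach 1. With only the 6 shRNA2 and shRNA3 libraries, edgeR called 0 genes and 3186 had an unadjusted p under 0.05 (5592 with all libraries). Leaving out 1 library gave 0 to 10800 calls, the highest without shRNA3 replicate 3, 19 without shRNA3 replicate 1 and 0 without shRNA3 replicate 2 or any shRNA2 replicate. For the genes chosen by the naming rule, 121 were called, against 0 with only the 6 libraries, 25 with library 3 as the only shRNA3 library and 0 to 172 with 1 library left out. Of list members 142 were called, against 88 with library totals, 224 with DESeq2's Wald test, 0 with only the 6 libraries, 25 with library 3 as the only shRNA3 library and 0 to 391 with 1 library left out.

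Replicate numbers did not pair the libraries, since same-numbered libraries had correlations of deviations of -0.00759, -0.0274 and -0.013. With the replicate block, 378 genes, 69 of the genes chosen by the naming rule and 68 list members were called.

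The 76 genes apart became 275 with a pseudocount of 0.1 CPM, 169 with the position cut at 0.5 and 10 with a log2 difference of at least 2. With library totals the count was 82, of which 44 were among the 76. The 3673 genes with library 3 at shRNA2 became 795 with a log2 difference of at least 2. Leaving out an shRNA2 library gave 78 to 89 and 3649 to 3705 genes.

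Signs of some named genes turned. With library 3 as the only shRNA3 library, log2 fold changes turned to -0.51 (KLF3-AS1), -0.03 (SLC2A14), -0.03 (TSC22D3), -1.19 (PER1), -4.58 (RGPD6), -9.16 (ZBTB45P1), -1.71 (RASA4B), -0.44 (INSIG1), -0.53 (FDFT1) and -0.01 (CCN2). They turned to 0.03 (HPS6), 0.09 (MOCS3), 0.24 (ZBTB9), 0.04 (SLC29A3), 0.16 (TMEM177), 1.32 (AC240274.1), 0.31 (EPGN), 0.46 (DGCR8), 0.26 (XPO5) and 0.33 (CCNE2). With the replicate block, RGPD6 was -0.15 and DLX1 -0.25, and with DESeq2 size factors AC240274.1 was 0.01. With 1 library left out, log2 fold changes ranged from -0.24 to 0.94 (RGPD6), -2.11 to 0.47 (AC240274.1) and -1.35 to 0.47 (DLX1). The cause was not tested.

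Depth limits low genes: 3 counts are 0.149 to 0.222 CPM in these 6 libraries.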
